A study of Mus musculus with 22 samples.

Results

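A total of 1411 regions carried a retained hnRNP A1 footprint in the spinal cord of at least 2 of 3 mice with mild experimental autoimmune encephalomyelitis (EAE) and in no naive mouse and no mouse with severe EAE. They were selected on the footprint lists themselves, from 82220 union regions made by joining all overlapping or adjacent footprints of 10 mice, so they made up 1.72% of all regions. Their presence in mild EAE and absence elsewhere is the selection and not a result.

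The footprints came from crosslinking and immunoprecipitation of hnRNP A1 followed by sequencing (CLIPseq). Every mouse was a female wild-type C57Bl/6 animal from Charles River, bought at 10 weeks, and gave 1 spinal cord immunoprecipitation with anti-hnRNP A1 clone 9H10 as labelled, while the study's methods name another clone. The 3 naive mice were healthy and age-matched. The 7 EAE mice were immunized with the myelin peptide MOG(35-55), emulsified in complete Freund's adjuvant, were given 100 ng of pertussis toxin on the day of immunization and on the next, and were killed 15 days after clinical onset. The submitters' sources give the age at immunization as 12 weeks in one place and 8 weeks in another. The mild group held mouse 3 and mouse 4, each with a clinical score of 1.5, and mouse 7, with a score of 1.0. The severe group held mice 1 and 5, with a score of 2.5, and mice 2 and 6, with a score of 3.0. All EAE mice were sampled at 1 stage after onset, and mild and severe describe the clinical score alone.

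hnRNP A1 is an RNA-binding protein of the cell nucleus that takes part in splicing, transport and stability of RNA. It binds short motifs built around UAG, often within introns. EAE is a model of multiple sclerosis in which T cells against a myelin protein enter the spinal cord, microglia and macrophages are activated, and myelin and axons are damaged.

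The lists differed in length before any comparison was made. Naive mice had 17119, 17454 and 17494 footprints. Mild EAE mice 3, 4 and 7 had 14534, 9751 and 24433. The severe EAE lists had 31870 footprints in mouse 5 but 2670, 209 and 673 in mice 1, 2 and 6, so absence from severe EAE rested mainly on mouse 5. The paper describes this mouse as the outlier of the severe group, with a binding profile like that of naive and mild EAE mice. It had been in remission shortly before the end of the experiment. The lists show only sites that passed the authors' subtraction of input and IgG signal, without a read count, and the depth behind a footprint is unknown.

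A few of these regions are shown first as sequence, since they are the stretches that all 3 mild EAE mice covered. They are the longest such stretches in coding sequence (*Prpf8* and *Gigyf1*) and with their midpoint in introns (*F630206G17Rik* and *Rora*), the longest in a noncoding exon of unique sequence (*Neat1*), and those of the complement gene *C3*, the only gene of the immune lists with regions in all 3 mice. Sequences are from the RefSeq GRCm38.p6 assembly, written 5′ to 3′ on the strand of the gene, with UAG (TAG in DNA letters) in capitals.

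C3, coding, chr17:57217085-57217171, minus strand: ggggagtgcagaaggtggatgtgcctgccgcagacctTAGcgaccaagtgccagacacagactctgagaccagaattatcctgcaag
C3, coding, chr17:57217266-57217332, minus strand: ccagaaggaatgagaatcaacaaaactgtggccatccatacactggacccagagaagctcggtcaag
Prpf8, coding, chr11:75495243-75495416, plus strand: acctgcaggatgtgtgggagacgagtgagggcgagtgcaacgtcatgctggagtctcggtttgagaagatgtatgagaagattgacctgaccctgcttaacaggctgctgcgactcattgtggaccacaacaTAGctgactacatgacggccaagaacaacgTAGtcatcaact
Gigyf1, coding, chr5:137523965-137524108, plus strand: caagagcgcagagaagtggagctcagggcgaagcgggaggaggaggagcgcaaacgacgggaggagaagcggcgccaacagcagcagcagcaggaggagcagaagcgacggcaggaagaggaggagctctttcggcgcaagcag
Rora, intron, chr9:68981627-68981773, plus strand: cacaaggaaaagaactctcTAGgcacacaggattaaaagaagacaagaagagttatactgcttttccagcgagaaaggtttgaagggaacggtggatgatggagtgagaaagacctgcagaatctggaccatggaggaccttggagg
F630206G17Rik, intron, and partly the exon of Gm12164, chr11:45829172-45829432, plus strand: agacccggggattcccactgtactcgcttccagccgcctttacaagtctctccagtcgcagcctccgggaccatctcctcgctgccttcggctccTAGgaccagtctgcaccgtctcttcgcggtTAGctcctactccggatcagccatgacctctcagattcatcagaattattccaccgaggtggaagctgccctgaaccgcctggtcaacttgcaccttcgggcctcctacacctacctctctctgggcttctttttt
Neat1, noncoding exon, chr19:5843329-5843466, minus strand: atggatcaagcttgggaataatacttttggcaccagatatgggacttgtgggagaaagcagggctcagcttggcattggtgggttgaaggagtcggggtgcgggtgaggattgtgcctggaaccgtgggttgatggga

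*C3* encodes the central component of the complement cascade. In its 2 regions the footprints of mice 3, 4 and 7 had the same ends to the nucleotide, covering 87 nt in each mouse in one region and 67 nt in each mouse in the other, and both coincided with an annotated exon. One UAG lay in the first stretch and 0 in the second. *Prpf8*, a core protein of the spliceosome, had 217, 179 and 180 nt covered in mice 3, 4 and 7 around an exon of 188 nt, with 2 UAG in the stretch common to all. *Gigyf1*, which takes part in translational repression, had 147, 146 and 146 nt covered over an exon of 147 nt, without a UAG. In the annotation the span of *Epo* overlaps this gene on the other strand, and the lists carry no strand. *Rora*, a nuclear receptor gene, had 160, 179 and 189 nt covered within an intron, with 1 UAG. *Neat1*, the long noncoding RNA that scaffolds paraspeckles, had 156, 147 and 174 nt covered within an exon of 2452 nt, without a UAG. No 31-nt word of these regions occurred elsewhere on chromosomes 1 to 19, X and Y, those of *F630206G17Rik* excepted.

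**Figure D1:**
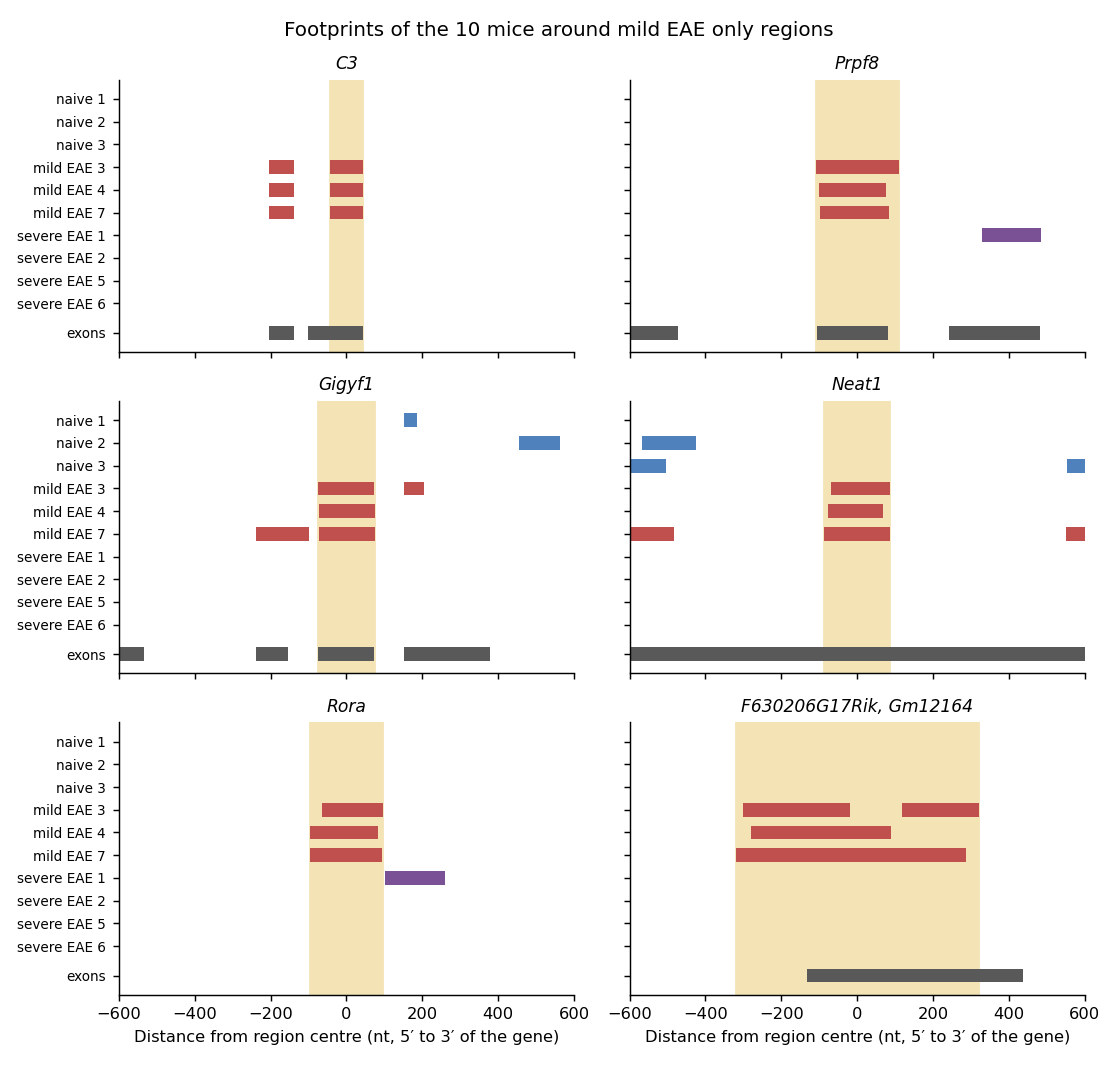
Footprints of the 10 mice (rows) within 600 nt of the centre of 6 regions of mild EAE only, with annotated exons in grey and the region shaded; the horizontal axis is the distance from the region centre in nt along the gene. Blue bars are naive, red mild EAE and purple severe EAE footprints. In *C3* all 3 mild EAE mice covered the same 2 exons, and in *Rora* a footprint of severe EAE mouse 1 began just outside the region.

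The longest stretch covered in all 3 mice, 261 nt, lay on chromosome 11 in *F630206G17Rik*, a processed transcript, and partly in *Gm12164*, annotated as a processed pseudogene. Mice 3, 4 and 7 covered 486, 369 and 606 nt of this region, and no naive or severe EAE mouse had a footprint anywhere in either gene. Of its 31-nt words 65.4% occurred at more than 1 place, so reads of a related copy could not be told apart from reads of this one. The stretch held 2 UAG.

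Most regions were shared by a pair of mice. Mice 3 and 7, which had the longer lists, shared 720 regions without mouse 4. Mice 4 and 7 shared 343 and mice 3 and 4 shared 219. All 3 mice shared 129 regions, 9.14% of the set. The same rule turned to naive mice gave 1843 regions, 2.24% of all regions, of which 201 (10.9%) were common to all 3 naive mice. Of the 8837 regions that at least 2 mild EAE mice had, 16.0% met the rule, against 24.4% of the 7563 regions of at least 2 naive mice.

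**Figure D2:**
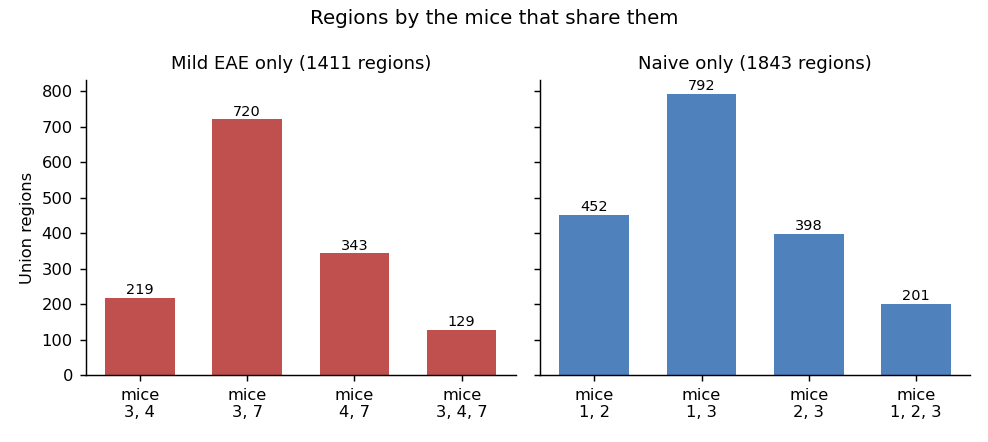
Number of union regions (vertical axis) by the mice that shared them, for regions of mild EAE only (left) and of naive mice only (right). In mild EAE the pair of mice 3 and 7 held 720 regions and all 3 mice held 129.

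Just outside the rule lay 16129 regions that 1 mild EAE mouse and no other mouse had, and 2660 regions that at least 2 mild EAE mice and exactly 1 other mouse had. That other mouse was severe EAE mouse 5 in 1705 of the 2660, and naive mouse 1, 2 or 3 in 384, 138 and 368. Without severe EAE mouse 5 the number of regions would be 3146. Without mild EAE mouse 3, 4 or 7 it would be 469, 849 and 349.

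The regions were short, with a median of 115 nt and a range of 15 to 2468 nt, against a median of 151 nt for naive only regions and 142 nt for regions that at least 2 mild EAE mice shared with another mouse (7426 regions, called shared regions from here on). The longest stretch covered by at least 2 mice had a median of 75 nt, and in 3 regions neighbouring footprints touched without a common nucleotide. In 861 regions (61.0%) footprints of at least 2 mice began or ended at the same nucleotide, and in 99 (7.02%) they were identical at both ends. Among naive only regions the shares were 39.3% and 5.53%.

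Regions of mild EAE only lay mainly in exons. By the region's midpoint 1034 of 1411 (73.3%) were in coding sequence, 136 (9.64%) in introns, 101 (7.16%) between genes, 83 (5.88%) in noncoding exons, 32 (2.27%) in 3′ UTRs and 25 (1.77%) in 5′ UTRs. Of the 129 regions of all 3 mice, 107 (82.9%) were coding and 7 (5.43%) intronic. Over all 82220 regions 49.5% were coding and 28.1% intronic.

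Per mouse, 1070 footprints of mouse 3, 694 of mouse 4 and 1196 of mouse 7 lay in these regions, which was 7.36%, 7.12% and 4.90% of each list. Of those that overlapped a gene, 82.7% in mouse 3, 72.7% in mouse 4 and 80.6% in mouse 7 had their midpoint in coding sequence. In the shared regions of the same mice the coding shares were 80.6%, 73.0% and 77.5%. The difference averaged 1.601 percentage points (SD 1.72, n = 3 mice) and was above 0 in 2 of 3 mice (exact sign-flip test, two-sided, p = 0.5, 0.5 after Benjamini-Hochberg adjustment over 5 features). The intronic share was 7.04%, 15.4% and 10.15% in mice 3, 4 and 7 against 8.90%, 15.2% and 11.1% in the shared regions, a difference of -0.861 points (SD 1.06, n = 3, exact p = 0.5, adjusted p = 0.5). With 3 mice this test cannot give a p below 0.25. In both shares the difference from the shared regions was smaller than its SD over the mice. Against all other footprints of the same mouse, which include regions that 1 mouse alone had, the coding difference was 9.02 points and the intronic difference -6.97 points (exact p = 0.25 each, the same direction in 3 of 3 mice).

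Naive only regions had another make-up. In naive mice 1, 2 and 3 the coding share of footprints in naive only regions was 49.3%, 52.7% and 56.8%, below the 65.7%, 70.2% and 68.1% of the regions these mice shared with others. The intronic share was 40.4%, 34.6% and 31.7% against 23.4%, 18.7% and 21.3%. The within-mouse difference in intronic share was thus -0.861 points in mild EAE and 14.4 points in naive mice, and the differences of the 3 mild EAE mice did not overlap those of the 3 naive mice. For coding share the differences were 1.601 and -15.1 points, again without overlap. Both comparisons gave p = 0.1 in the exact permutation test of 3 against 3 mice (two-sided, 0.167 after adjustment over 5 features), the smallest p this design allows. By the rule the mice of a group share its regions, so their values are not independent, and the lack of overlap must be read with that limit. Against all other footprints of each mouse the differences were 8.11 points for coding and -6.60 points for intronic share (exact p = 0.2 each), and without naive mouse 1 the intronic difference was -6.74 points.

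**Figure D3:**
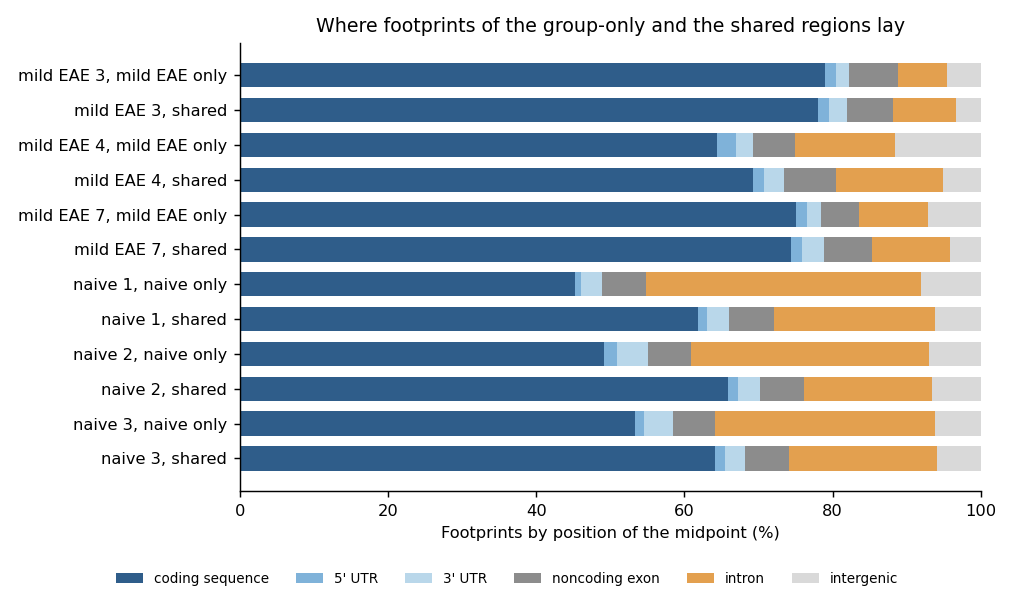
Percentage of footprints (horizontal axis) by the annotation at their midpoint, for each mild EAE and naive mouse (rows), in the regions of its own group only and in the regions shared with another mouse. Coding sequence made up 64.4% to 79.0% of footprints in regions of mild EAE only and 45.3% to 53.4% in naive only regions.

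Footprints in regions of mild EAE only often ended at exon borders. At least 1 end lay at the end of an annotated exon in 72.0%, 53.3% and 66.0% of footprints in mice 3, 4 and 7, against 69.5%, 57.6% and 66.3% in their shared regions and 37.9% to 44.9% in naive only regions. A footprint spanned a whole exon exactly in 12.0%, 6.20% and 12.4%, against 17.3%, 10.1% and 19.6% in shared regions. The base composition was close in both sets, with a GC content of 51.4%, 49.5% and 50.2% in mice 3, 4 and 7 against 51.1%, 49.7% and 49.8% in shared regions (difference 0.171 points, SD 0.336, n = 3, exact p = 0.5, adjusted p = 0.5).

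Motifs were counted as UAG and AGGU on the strand of the gene, in footprints that overlapped a single gene, and compared with equally long stretches that began 200 nt to either side. These windows were placed regardless of annotation, so those beside a coding footprint could lie in introns. In regions of mild EAE only, UAG was sparser inside footprints than in these windows. Its density was 7.74, 10.0 and 9.02 per 1000 nt in mice 3, 4 and 7, against 11.9, 12.1 and 12.7 per 1000 nt beside them, log2 ratios of -0.62, -0.27 and -0.49. In the shared regions of the same mice the log2 ratios were -0.07, 0.13 and -0.11. The difference averaged -0.44 on the log2 scale (SD 0.09) and was below 0 in 3 of 3 mice (exact sign-flip test, p = 0.25, adjusted p = 0.5). Over coding footprints alone it was -0.07, and without severe EAE mouse 5 it was -0.76. For AGGU the log2 ratios were -0.16, -0.09 and -0.18 against 0.01, 0.16 and -0.03, a difference of -0.19 (SD 0.05), again below 0 in 3 of 3 mice (exact p = 0.25, adjusted p = 0.5), but 0.11 over coding footprints alone. The longer motif UAGGG was rare, with 24, 21 and 23 occurrences in the footprints of mice 3, 4 and 7.

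Coding and intronic footprints had opposite motif densities. In coding footprints UAG, which is also a stop codon, was at log2 ratios of -1.14, -1.44 and -1.27 in regions of mild EAE only and of -1.27, -1.20 and -1.16 in shared regions, so the sets overlapped. In intronic footprints UAG was denser than beside them, at log2 ratios of 0.73, 0.64 and 0.60 in mice 3, 4 and 7, from 66, 89 and 109 footprints. The shared intronic footprints of these mice had higher ratios, 1.41, 1.26 and 1.23, a difference of -0.64 that had the same direction in 3 of 3 mice (exact p = 0.25). Intronic AGGU behaved alike, with 0.42, 0.19 and 0.29 against 1.02, 1.01 and 0.89. In naive mice the within-mouse differences in UAG over all footprints were -0.19, -0.11 and -0.15, all nearer to 0 than the -0.55, -0.40 and -0.38 of the mild EAE mice (exact permutation test, p = 0.1, adjusted p = 0.167). The difference between the groups, -0.30, was -0.64 without severe EAE mouse 5 and -0.16 without mild EAE mouse 3. In coding footprints alone the within-mouse UAG differences were 0.13, -0.23 and -0.11 in mild EAE mice 3, 4 and 7. They were -0.08, -0.31 and -0.08 in naive mice 1, 2 and 3, so the groups overlapped. Among footprints of 80 to 120 nt in regions of mild EAE only, 42.7%, 41.9% and 47.1% held at least 1 UAG in mice 3, 4 and 7, against 39.6%, 42.7% and 41.5% in shared regions.

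**Figure D4:**
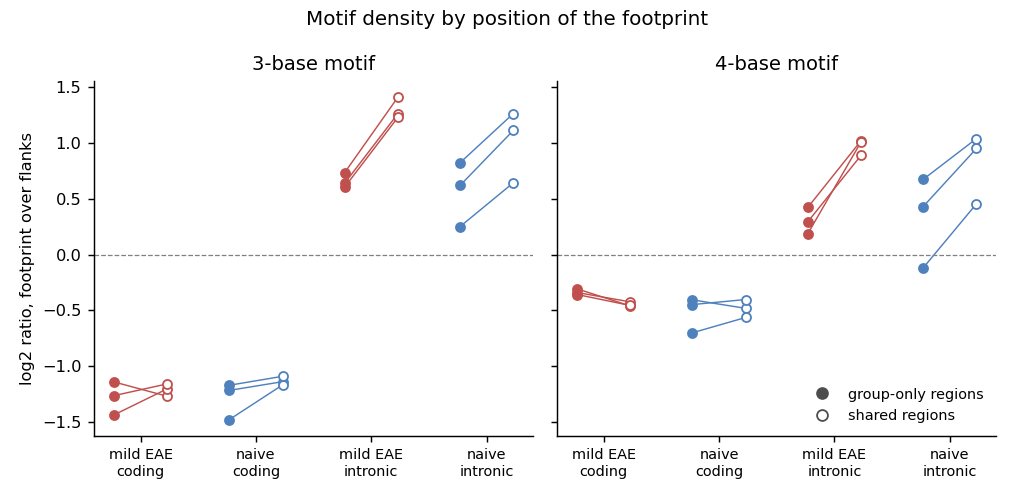
Log2 ratio of motif density in footprints over windows 200 nt away (vertical axis) for UAG (left panel, 3-base motif) and AGGU (right panel, 4-base motif), by the position of the footprint; each line is 1 mouse, filled points are regions of its own group only and open points regions shared with another mouse. Intronic points lay above 0 for the regions of mild EAE only (UAG 0.60 to 0.73) and higher for the shared regions (1.23 to 1.41).

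Some of the regions were in sequence that the genome holds more than once. Of 1374 regions on chromosomes 1 to 19, X and Y that were at least 31 nt long, 305 (22.2%) had at least 50% of their 31-nt words at more than 1 place, against 17.6% of naive only and 16.3% of shared regions. In coding sequence this share was 7.86%, and in intergenic regions 80.6%. In introns it was 61.0% for regions of mild EAE only, 15.4% for naive only and 33.5% for shared regions. Grouped by common sequence, the 1374 regions made 1250 families, and 197 regions fell into 73 families of 2 or more. Repeat-masked sequence made up 17.3%, 32.4% and 21.8% of the footprint nucleotides in mice 3, 4 and 7, so that mouse 4, with the highest share between genes, also had the most repeats. Without the multicopy regions 1106 regions of mild EAE only remained, and the difference in UAG was -0.56.

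The clearest concentration was on distal chromosome 2. The 3 Mb of chr2:175000001-178000000 held 68 regions, 4.82% of the set, against 2.45% of all union regions and 2.33% of naive only regions. This stretch is a cluster of zinc finger genes, including *Zfp972* and *Zfp973*, whose products are mostly DNA-binding repressors. All 68 regions were multicopy, with a median of 15 genomic places for their words, and they formed 35 families. Only 3 were in coding sequence, while 30 were intronic and 31 intergenic. The window held 612, 388 and 423 footprints in naive mice, 462, 429 and 593 in mild EAE mice, 721 in severe EAE mouse 5, and 77, 50 and 2 in severe EAE mice 1, 2 and 6. These regions are not independent loci, and the lists do not show which copy a contig came from.

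Within genes, 1311 of the regions lay in 1015 genes, of which 885 were protein-coding. A single region was found in 691 genes, 2 in 248 genes and 3 in 52 genes. The gene with most was *Gm20388* with 8, an annotation that spans other genes. Of its regions 5 also lay in coding sequence of *Zc3h18*, *Spg7* or *Rhou*, and the other 3 were multicopy. *Snhg14*, the long noncoding host RNA of imprinted snoRNA clusters, followed with 7, all of them multicopy. *Gpr158*, an orphan G protein-coupled receptor of neurons, had 6 intronic regions, of which 4 were copies within the gene.

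Most regions of the next genes were coding and in unique sequence. *Atxn2l*, a paralogue of ataxin-2 found in stress granules, had 5 regions, 3 of them in all mild EAE mice, with 392, 326 and 380 nt covered in mice 3, 4 and 7. Over the whole gene, footprints covered 501, 443 and 267 nt in naive mice, 1060, 695 and 1115 nt in mild EAE mice, with 556 nt in severe EAE mouse 5 and 0 in the other severe EAE mice. These totals include the selected regions, which are 0 in the other mice by the rule, and every naive mouse had footprints at other places in the gene. *Fbf1*, a protein of the ciliary base, had 5 regions with 382, 127 and 551 nt, *Scn2a*, a neuronal sodium channel, had 5 with 258, 365 and 336 nt, 1 of them multicopy, and *Mcf2l*, a guanine nucleotide exchange factor, had 5 with 287, 36 and 396 nt. *Kmt2d*, a histone methyltransferase, also had 5, with 235, 158 and 357 nt. Its whole gene was covered alike in naive (2102, 1908 and 2076 nt) and mild EAE mice (2102, 1283 and 2387 nt). *Gvin1*, an interferon-induced GTPase gene, had 4 regions with 385, 411 and 406 nt, all multicopy, and *Syne1*, a nuclear envelope protein, had 4 with 0, 467 and 376 nt.

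The other mice usually had footprints elsewhere in the same gene. Of the 1311 regions in genes, 1075 (82.0%) lay in a gene in which at least 1 naive mouse had a footprint at another place, and 1071 (81.7%) in a gene with a severe EAE footprint. For single mice the share was 63.1%, 64.7% and 65.4% in naive mice 1, 2 and 3. For the severe EAE mice it was 81.01% in mouse 5, 25.0% in mouse 1, 8.62% in mouse 6 and 4.58% in mouse 2, which is the order of their list lengths. For naive only regions, 90.4% lay in a gene with a mild EAE footprint. Near by, such footprints were rare. In 268 of 1411 regions (18.99%) a naive or severe EAE footprint lay within 200 nt, against 19.4% of naive only regions with a mild or severe EAE footprint that close. Of the 1015 genes, 143 (14.1%) had no naive and no severe EAE footprint at all, against 4.503% of the 4641 genes footprinted in at least 2 mild EAE mice. Among all 13965 genes with a footprint in any mouse the share was 11.4%. In a gene without naive or severe EAE footprints any place covered in 2 mild EAE mice meets the rule, so the selection itself favours such genes.

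The 27 gene lists covered 1033 genes, of which 154 held regions of mild EAE only, 230 regions in all. Of all 1015 genes with such a region, 784 (77.2%) had a naive footprint, the share to set beside the list counts. A list's share of the 1411 regions is given beside its share of all 82220 regions. In 15 lists the first was larger. Several of these 15, among them the complement and the collagen lists, had a still larger share of the shared regions. All list shares are descriptions of small counts, and their counting intervals are wide. The intervals treat the regions as independent, which regions of the same genes and the same mice are not. They therefore do not test a list against all regions.

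Genes of microglia and macrophages held 8 regions (0.567%, exact binomial 95% interval 0.245 to 1.11%) against 0.167% of all regions, 0.256% of shared and 0.0543% of naive only regions. They were in 5 genes of 30. *Csf1r*, the receptor on which microglia depend for survival, had 3 regions with 256 nt in mouse 3 and 256 nt in mouse 7 and none in mouse 4. *Gpnmb*, a glycoprotein of activated phagocytes, had 2 with 34, 172 and 261 nt in mice 3, 4 and 7. *Itgam*, the CD11b integrin chain, had 1 with 141, 0 and 130 nt, *Lyz2*, lysozyme, 1 with 157, 47 and 0 nt, partly in sequence found elsewhere, and *Lgals3*, galectin-3, 1 with 79, 0 and 77 nt. None of the 5 genes had a footprint in any naive mouse, while 77.2% of all 1015 genes with a region had one. All 5 were footprinted elsewhere in severe EAE mouse 5, from 149 nt in *Lgals3* to 1504 nt in *Csf1r*. By the rule no severe EAE mouse had a footprint in the regions themselves. Their difference from severe EAE mouse 5 is therefore the selection and not a result.

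Naive mice had footprints in 3 to 4 of the 30 genes, mild EAE mice 3, 4 and 7 in 13, 8 and 14, and severe EAE mouse 5 in 21. Their summed footprints were 0.0254% to 0.0268% of the covered nucleotides in naive mice, 0.1105% to 0.3095% in mild EAE mice and 0.2328% in severe EAE mouse 5. Severe EAE mice 1 and 6 had 4 genes each, 0.1236% and 0.6158% of their short lists, and mouse 2 had 0. These gene counts and shares include the selected regions, which are 0 in naive and severe EAE mice by the rule. The part of cell content in the regions of these genes was not tested, and in whole tissue a larger number of cells and more RNA per cell cannot be told apart. Lymphocyte genes held 0 regions, and at most 2 of the 25 were footprinted in any mouse. They held only 7 of all union regions (0.0085%), so a count of 0 says little.

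Complement genes held 7 regions (0.496% against 0.158% of all, 0.727% of shared and 0% of naive only regions). Besides *C3*, they were in the 3 chains of C1q, which starts the classical pathway, and in *Itgam*. *C1qa* had 141 nt in mouse 3 and 175 nt in mouse 4, *C1qc* 132 and 176 nt in the same mice, and *C1qb* 127 nt in mouse 3 and 121 nt in mouse 7. *C1qa* and *C1qc* had no naive footprint, and *C1qb* had 131 nt in naive mouse 2. Over all of *C3*, footprints covered 343, 209 and 272 nt in naive mice, 3363, 1308 and 1591 nt in mild EAE mice and 3192 nt in severe EAE mouse 5, so the gene as a whole was not particular to mild EAE.

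Interferon response genes held 6 regions (0.425% against 0.156% of all, 0% of naive only and 0.175% of shared regions). *Irf1*, a transcription factor induced by interferon, had 2 coding regions with 178 nt in mouse 3 and 192 nt in mouse 7, and no footprint in any naive or severe EAE mouse anywhere in the gene. *Stat2* had 2 regions with 113 nt in mouse 3 and 129 nt in mouse 4. *Gbp4*, in multicopy sequence, and *Rnf213* had 1 each. Antigen presentation genes held 5 regions (0.354% against 0.215% of all, 0.163% of naive only and 0.485% of shared regions). *Nlrc5*, which drives MHC class I genes, had 2 with 141 nt in mouse 3 and 116 nt in mouse 4, and *Psmb8*, a subunit of the immunoproteasome, had 54 nt in mouse 4 and 154 nt in mouse 7. *H2-Q7* had 1, of which 54.4% of words occurred elsewhere, and *Calr* had 1. Lysosome and phagocytosis genes held 6 regions (0.425% against 0.356% of all, 0.271% of naive only and 0.539% of shared regions). Of the 6 genes, among them *Psap* and *Ctsb*, 4 had naive footprints.

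**Figure D5:**
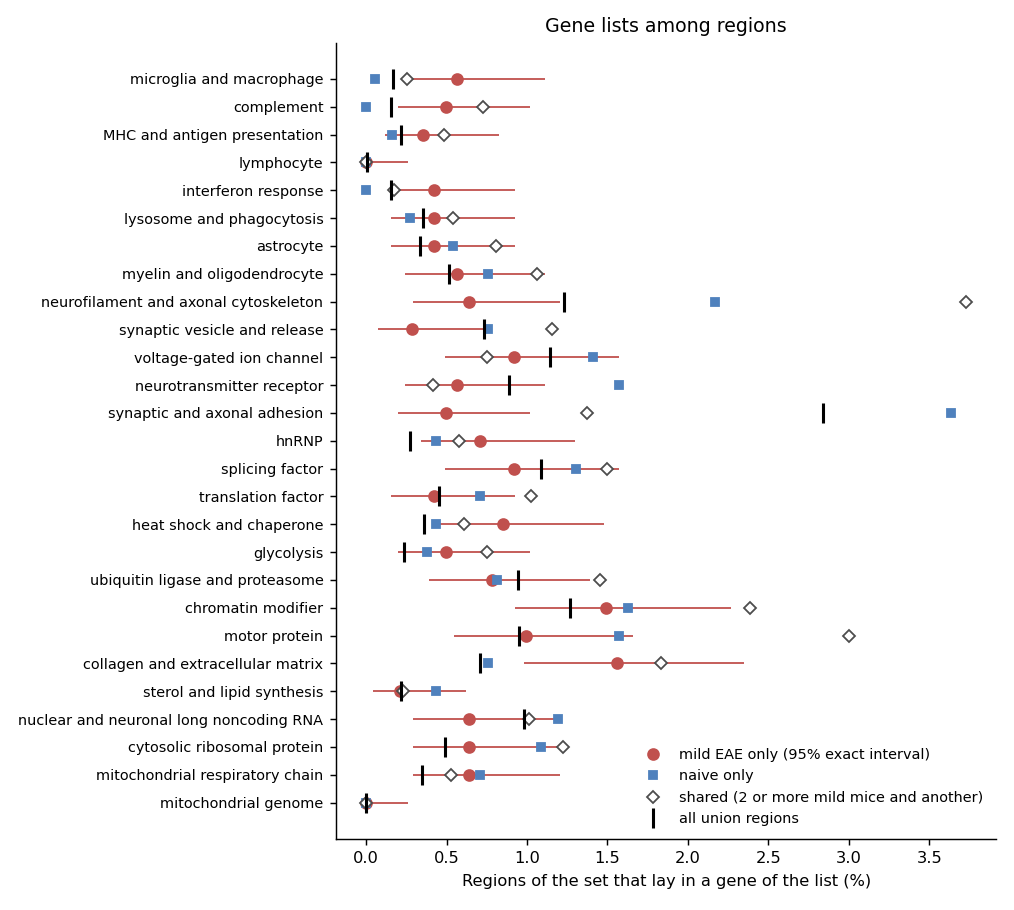
Share of regions in a gene of each list (horizontal axis, percent) for regions of mild EAE only with their exact 95% binomial interval, naive only regions, shared regions and all union regions; rows are the 27 lists. The microglia and macrophage list lay at 0.567% in mild EAE only regions and 0.0543% in naive only regions, and the synaptic and axonal adhesion list at 0.496% and 3.64%.

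Glial and neuronal lists were placed differently. Astrocyte genes held 6 regions (0.425% against 0.336% of all, 0.543% of naive only and 0.808% of shared regions), among them *Lcn2*, lipocalin-2, with 160 nt in mouse 3 and 120 nt in mouse 7 and no naive footprint in the gene, and *Glul*, glutamine synthetase, in multicopy sequence. Myelin and oligodendrocyte genes held 8 (0.567% against 0.516% of all, 0.760% of naive only and 1.06% of shared regions), among them 2 in *Myrf*, the transcription factor of myelination, and others in *Cnp*, *Qdpr*, *Nfasc*, *Mag* and *Trf*. All genes of this list with a region also had naive footprints. Neurofilament and axonal cytoskeleton genes held 9 (0.638% against 1.23% of all, 2.1704% of naive only and 3.73% of shared regions), with 3 in *Mapt*, which encodes tau, and 1 in *Nefm*. Synaptic and axonal adhesion genes held 7 (0.496% against 2.84% of all, 3.64% of naive only and 1.37% of shared regions), synaptic vesicle genes 4 (0.283% against 0.732% of all, 0.760% of naive only and 1.16% of shared regions) and neurotransmitter receptor genes 8 (0.567% against 0.885% of all, 1.57% of naive only and 0.417% of shared regions). Every gene with a region in these 4 neuronal lists was also footprinted in naive mice, as were 77.2% of all genes with a region. Counted by overlap with exons, the adhesion and the receptor lists each held 0.142% of the regions.

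Voltage-gated ion channel genes held 13 regions (0.921% against 1.14% of all, 1.41% of naive only and 0.754% of shared regions), 5 of them in *Scn2a*. Over that gene, footprints covered 254, 297 and 309 nt in naive mice and 353, 365 and 439 nt in mild EAE mice, while 258, 365 and 336 nt of the latter lay in the regions of mild EAE only. In mouse 4 no other footprint of this gene was retained. Severe EAE mouse 5 covered 1126 nt at other places of the gene.

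Collagen and extracellular matrix genes held 22 regions, the most of any list (1.56%, interval 0.980 to 2.35%, against 0.709% of all, 0.760% of naive only and 1.83% of shared regions), in 12 genes. *Col6a1* had 4 with 196, 25 and 171 nt in mice 3, 4 and 7, *Agrn* 4 with 192, 0 and 151 nt, *Col5a2* 3, and *Fn1*, fibronectin, 2 with 0, 132 and 196 nt. All 12 genes had naive footprints, as had 77.2% of all genes with a region. Chromatin modifiers held 21 (1.49% against 1.27% of all, 1.63% of naive only and 2.38% of shared regions), led by *Kmt2d*, *Chd5* and *Atrx*, and motor proteins held 14 (0.992% against 0.948% of all, 1.57% of naive only and 3.00% of shared regions), with 3 each in *Myo18a* and *Dync1h1*.

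RNA-binding proteins included hnRNP A1's own family. hnRNP genes held 10 regions (0.709% against 0.274% of all, 0.434% of naive only and 0.579% of shared regions) in 7 genes. *Hnrnpab* had 3, of which 2 were in all mild EAE mice, with 149, 170 and 288 nt in mice 3, 4 and 7, and no naive footprint in the gene, while severe EAE mouse 5 covered 277 nt at other places. *Phykpl* overlaps 2 of these regions. *Hnrnpm* had 2 with 131, 0 and 111 nt. *Hnrnpa1* itself had 1 with 30 nt in mouse 3 and 40 nt in mouse 4, all of whose words occurred elsewhere in the genome. Splicing factors held 13 (0.921% against 1.09% of all, 1.302% of naive only and 1.49% of shared regions), with 2 in *Prpf8* and 2 in *Tra2b*. *Tra2b*, a regulator of exon inclusion, had no naive or severe EAE footprint anywhere in the gene.

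Chaperone genes held 12 regions (0.850% against 0.360% of all, 0.434% of naive only and 0.606% of shared regions), in 8 genes such as *Cct8*, *Dnajc5* and *Dnajb2*. Glycolysis genes held 7 (0.496% against 0.237% of all, 0.380% of naive only and 0.754% of shared regions). Those in *Pgk1* were multicopy, as was the *Ldhb* region with 90.3% of its words elsewhere. The other *Ldhb* region had 27.9% of its words elsewhere. Translation factors held 6 (0.425% against 0.451% of all, 0.705% of naive only and 1.02% of shared regions), with 2 each in *Eif4g1* and *Eef2*. Ubiquitin ligase and proteasome genes held 11 (0.780% against 0.945% of all, 0.814% of naive only and 1.45% of shared regions), with 3 each in *Herc1* and *Huwe1*. Sterol and lipid synthesis genes held 3 (0.213% against 0.220% of all, 0.434% of naive only and 0.229% of shared regions). Ribosomal protein genes held 9 (0.638% against 0.490% of all, 1.09% of naive only and 1.23% of shared regions). Those of *Rplp0*, *Rpl17*, *Rpl15*, *Rpl36* and *Rps27rt* were in multicopy sequence. Ribosomal protein genes have many processed pseudogenes. Nuclear-encoded respiratory chain genes held 9 (0.638% against 0.345% of all, 0.705% of naive only and 0.525% of shared regions), in 7 genes of which 5 had no naive footprint. Of all 1015 genes with a region, 77.2% had one. *Ndufs8* and *Cyc1* had 2 each, and *Uqcrq* and *Ndufaf5* 1 each, with no footprint of a naive or severe EAE mouse in any of these 4 genes. In *Ndufaf5* 76.6% of the words occurred elsewhere. Long noncoding RNAs held 9 (0.638% against 0.982% of all, 1.19% of naive only and 1.01% of shared regions). Genes of the mitochondrial genome held 0, against 0.0024% of all regions.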

How the data were processed

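The authors trimmed the reads, assembled each library into contigs, aligned these to GRCm38 with minimap2 version 2.17, per the labels and the methods, removed sites also found in input or pooled IgG with bedtools, and deposited 1 list of intervals per mouse with chromosome, start and end only. Values here are therefore positions and covered nucleotides, with no counts, score or strand. All 136207 footprints of 10 mice were used, of which 135636 lay on chromosomes 1 to 19, X and Y, and 0 ran past a chromosome end. Input and IgG libraries were not analysed here. The lists hold no measure of sequencing depth, and the number of retained footprints per mouse, 209 to 31870, is not one. The paper describes the depth as similar among its samples. Its supplement lists mapped unique reads, with the most for severe EAE mouse 5 and then mild EAE mouse 7, the mice with the longest lists. Severe EAE mouse 2, with the shortest list, had more than mild EAE mice 3 and 4. Of the immunoprecipitations, naive mouse 2 had the fewest. The part of depth in the number of regions was not tested.

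Union regions were built in Python 3.11.15 with pandas 2.3.3 and tested on simulated footprints. Location came from GENCODE M21 at the midpoint, with coding sequence taking precedence over other annotations, and sequence from RefSeq GRCm38.p6 with pysam 0.24.0. A region was called multicopy when at least 50% of its 31-nt words, on either strand, occurred at more than 1 place of chromosomes 1 to 19, X and Y. The 5 features were compared within each mouse between regions of its group only and shared regions, with exact sign-flip and permutation tests and Benjamini-Hochberg adjustment. Mice are the replicates, but the mice of a group share its regions, so their values are not independent. All p-values are two-sided.

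The regions, the gene lists and the tests were chosen with earlier results of these data known. Genes were named by fixed rules: the 10 with most regions, those of the 5 regions with the longest stretch covered by all 3 mice, and up to 3 per list by covered nucleotides. Further list genes were named after their values were seen. Alternatives, of which 2 (no multicopy regions, coding footprints only) were chosen after seeing the data, changed footprint length limits, joining distance, annotation, motif windows and the comparison set, or left out each mouse. Overlapping genes could not be separated. Values of some genes that the rules would name are not reported here.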

Additional observations from a re-analysis of the deposited data

Results flagged for a closer look

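Footprints of severe EAE mouse 5 lay within 200 nt of 10.1% of the regions of mild EAE only, far from the 0.638%, 0% and 0.283% of severe EAE mice 1, 2 and 6, which themselves had much shorter lists.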

How the results depend on the processing

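The number of regions of mild EAE only, 1411, was 129 when all 3 mild EAE mice were required and 3426 when severe EAE was ignored, and ranged from 349 to 3146 when each mouse in turn was left out. The lowest value came without mild EAE mouse 7 and the highest without severe EAE mouse 5, the only severe EAE mouse with a long list. No test could pass 0.05 in these designs. The difference in intronic share within mild EAE mice was 0.999 points by covered nucleotides and 0.551 points with stretches in place of regions, and ranged from -4.83 to 1.31 with a mouse left out. The coding share difference was -1.06 points with stretches. The AGGU difference was 0.11 over coding footprints alone, an alternative chosen after seeing the data, as was leaving out multicopy regions. The GC difference ranged from -0.0076 to 1.03 points with a mouse left out. Between mild EAE and naive mice, the AGGU difference ranged from -0.28 to 0.14 with a mouse left out. The GC difference between them was 0.497 points against all other footprints, 1.28 points on the values themselves and 0.8289 points without multicopy regions, and ranged from -0.92 to 1.28 with a mouse left out. The share of regions in a gene with a naive footprint ranged from 74.7% to 77.7% with a naive mouse left out. The intronic, coding and UAG differences between mild EAE and naive mice kept their direction under every alternative run for them. With a mouse left out they ranged from -22.6 to -6.74 points, from 11.2 to 25.0 points and from -0.64 to -0.16, and the UAG difference within mild EAE mice from -0.76 to -0.34. This within-mouse UAG difference was weaker, -0.27, with footprints of at most 200 nt, and also -0.27 when all 3 mild EAE mice were required. The alternatives for UAG between the groups did not include coding footprints alone, in which the groups overlapped. The causes were not tested. No paired analysis was possible because the mild EAE and naive mice were separate animals that share only 1 replicate number. That number, 3, is a label within each group (mild EAE 3, 4 and 7, naive 1, 2 and 3) and does not mark a pair. The depth behind single footprints is unknown, so absence of a footprint means only that none was retained.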

Other observations

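A second concentration of regions of mild EAE only lay on chromosome 4, where chr4:42000001-43000000 held 14 regions, 0.992% of the set, against 0.435% of all union regions and 0.326% of naive only regions. Of these, 12 were multicopy and they formed 8 families. By midpoint 8 were intergenic, 3 intronic and 1 coding. The mice had 87, 79 and 70 footprints there in naive cord, 60, 55 and 115 in mild EAE and 108 in severe EAE mouse 5. A further 5 windows of 1 Mb, on chromosomes 8, 9, 10 and 15, held 10 regions each (0.709% of the set), nearly all of them in coding sequence. Each of these windows held between 108 and 215 of the 82220 union regions, and between 1 and 3 naive only regions.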
